A study of Homo sapiens with 12 samples.

Results

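The cytosolic and mitochondrial chaperones of the heat shock response were followed in 2 human cancer cell lines treated with small molecules that act on the histone acetyltransferases CBP and p300. The set was the rows named HSPA1A, HSPA1B, HSPA8, HSPH1, HSP90AA1, HSPB1, HSPD1, HSPE1, DNAJB1 and BAG3, each chosen by its name alone, which made 10 of the 34687 rows of the table. RNA was measured on Illumina HumanHT-12 BeadChips, which report the brightness of labelled RNA bound to probes on beads. HCT116 is an established colon cancer line and PANC1 an established line of pancreatic adenocarcinoma. Cells of each line received 0.05% DMSO as the solvent control, or else ICG-001 or C646, each at 10 uM, with collection at 12 or 96 h. ICG-001 binds CBP and blocks its interaction with β-catenin, and C646 inhibits the acetyltransferase activity of CBP and p300. The 12 combinations of line, treatment and time each had 1 column of values, averaged by the authors from 2 arrays, except that ICG-001 at 12 h in PANC1 came from 3 arrays. Because single arrays were not used here, no difference below has a replicate error, no test was run, and the order of neighbouring values could not be set against a spread. By the methods of the study, cells of the 12 h groups were denser when treatment began, and cells of the 96 h groups were passaged and given fresh medium and drug each day, so time and handling cannot be told apart.

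Heat shock genes encode chaperones, which bind unfolded or newly made proteins and help them to fold. When unfolded proteins accumulate, heat shock factor 1 (HSF1) forms a trimer, binds heat shock elements in the promoters of these genes and raises their transcription. In cancer cells many of these chaperones are abundant without heat. The HSP70 proteins encoded by HSPA1A and HSPA1B are strongly inducible, while HSPA8 encodes the constitutive HSP70 of the cytosol. HSPH1 encodes an HSP110, a nucleotide exchange factor of HSP70, and DNAJB1 encodes an HSP40, which delivers clients to HSP70 and stimulates its ATPase. BAG3 is a co-chaperone that links HSP70 to small heat shock proteins and to autophagy. HSP90AA1 encodes the inducible cytosolic HSP90, HSPB1 the small heat shock protein HSP27, and HSPD1 and HSPE1 the HSP60 and HSP10 of the mitochondrial chaperonin.

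Promoter sequences of the set are shown first because they hold the binding letters of the factor that the genes are named for. They were taken from RefSeq (GRCh38.p14) as windows of 300 bases, 250 of them before the transcription start, and the 10 genes had 14 windows. Shares over all genes are per window, while a gene of the set was counted when any of its windows matched, so these are unlike counts. A heat shock element is made of GAA units in alternating orientation, and 3 units in the order GAANNTTCNNGAA were searched on both strands. This run was found in 172 of 35116 windows of all genes, or 0.490%, and in windows of HSPA8, HSP90AA1 and HSPD1. The shorter head-to-head pair GAANNTTC, which lies inside that run, was found in 6.77% of all windows and in windows of 7 of the 10 genes (HSPA1A, HSPA1B, HSPA8, HSP90AA1, HSPB1, HSPD1 and DNAJB1). The tail-to-tail pair TTCNNGAA, also inside the run, was in 7.74% of all windows and in those of HSPA8, HSP90AA1 and HSPD1. CCAAT was in 34.6% of all windows on either strand and in windows of 5 of the genes. TATAAA on the strand of the gene was in 7.33% of all windows and in those of HSPA1A and HSPA1B. No GAANNTTC or TTCNNGAA was found in the windows of HSPH1, HSPE1 and BAG3, which says only that these letters were not in those windows. A match is a run of letters and was not tested as a binding site.

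The inducible HSP70 genes lie close together on chromosome 6, and their windows were identical at 277 of 301 aligned columns (92.0%). The stretches below run from HSPA1A at chr6:31815433-31815542 and from HSPA1B at chr6:31827628-31827737, both on the plus strand, and capitals mark GAANNTTC and TATAAA.
HSPA1A: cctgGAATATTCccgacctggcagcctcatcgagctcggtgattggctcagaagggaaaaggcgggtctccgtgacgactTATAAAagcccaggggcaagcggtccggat
HSPA1B: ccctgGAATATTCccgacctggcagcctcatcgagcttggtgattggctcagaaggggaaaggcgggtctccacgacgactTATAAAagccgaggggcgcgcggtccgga
The pair of GAA units lay 106 to 99 bases before the start of HSPA1A and 105 to 98 bases before that of HSPA1B.

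The windows with 3 alternating units, and that of the HSP40 gene, are shown for comparison, each on the minus strand and with all searched GAA pairs and runs in capitals. HSPA8 is shown at chr11:123062137-123062206 and, further upstream, at chr11:123062342-123062376. HSP90AA1 is shown at chr14:102087045-102087139, HSPD1 at chr2:197500061-197500090 and DNAJB1 at chr19:14518398-14518482. In these last 3 genes the window belongs to a start that lies inside the gene, downstream of its outermost start.
HSPA8: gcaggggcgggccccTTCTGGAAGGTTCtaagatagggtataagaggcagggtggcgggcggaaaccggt
HSPA8 upstream: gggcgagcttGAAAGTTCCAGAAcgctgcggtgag
HSP90AA1: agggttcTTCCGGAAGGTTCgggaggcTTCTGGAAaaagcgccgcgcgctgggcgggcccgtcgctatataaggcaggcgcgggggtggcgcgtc
HSPD1: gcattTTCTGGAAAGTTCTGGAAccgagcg
DNAJB1: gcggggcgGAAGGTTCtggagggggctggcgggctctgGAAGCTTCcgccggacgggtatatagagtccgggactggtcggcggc
The runs in HSPA8 lay 55 to 43 and 230 to 218 bases before the start, and the run in HSP90AA1 88 to 76 bases before it. Those in HSPD1 overlapped, at 245 to 233 and 240 to 228 bases before its inner start. HSPD1 and HSPE1 point away from each other on chromosome 2 with 104 bases between their starts. That stretch, chr2:197500275-197500378, is given on the strand of HSPE1 because the genes share it and their signals are set side by side below. None of the GAA pairs was found in it. The HSPD1 runs printed above lie near it, downstream of the outermost HSPD1 start and beyond the window of HSPE1.
HSPD1 to HSPE1: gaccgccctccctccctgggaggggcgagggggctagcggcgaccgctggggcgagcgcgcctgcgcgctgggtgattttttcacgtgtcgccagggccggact

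Signals are linear intensity units after quantile normalization by the authors, with background left in. The median signal of a column was 139.05 to 139.64 in HCT116 and 132.69 to 133.53 in PANC1. A detection limit was set for each column above the peak of its log2 distribution, where most values are background, by a fixed multiple of the SD of the values below that peak, and it lay at 144.4 to 147.1 in HCT116 and 136.1 to 140.3 in PANC1. Sorted log2 signals differed on average by 0.0037 to 0.0093 between columns of a line and by 0.063 to 0.066 between columns of different lines, so signals were compared within a line. KRT8, KRT18, KRT19, EPCAM and CDH1, markers of simple epithelium, were above the limit in all 12 columns. Of the intestinal markers CDX2 was above the limit in every column, GPA33 in 5 of 6 columns of each line, VIL1 in none, and CDH17 in none of HCT116 and in 1 of PANC1. Of the mesenchymal genes, VIM read 257 to 335 in HCT116 and 14637 to 18144 in PANC1, CAV1 2552 to 4035 and 4188 to 6200, and CDH2 was above the limit only in PANC1, in 6 of 6 columns. The leukocyte markers PTPRC and CD3E and the endothelial markers PECAM1 and CDH5 were under the limit throughout.

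Of the 10 genes, 9 were above the detection limit in all 12 columns, and the exception was HSPA1A. In HCT116 its signal was 135 and 126 with DMSO at 12 and 96 h, 140 and 135 under ICG-001, and 128 and 127 under C646, so it was under the limit in 6 of 6 columns. In PANC1 it read 1892 and 3433 with DMSO, 1829 and 3076 under ICG-001, and 3374 and 2888 under C646. HSPA1A therefore entered the comparisons in PANC1 only.

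Its near copy HSPA1B was bright in both lines. In HCT116 HSPA1B read 5665 and 4767 with DMSO at 12 and 96 h, 2223 and 5573 under ICG-001, and 9247 and 5055 under C646. In PANC1 it read 1906 and 3285 with DMSO, 1881 and 2867 under ICG-001, and 3278 and 2604 under C646. The HCT116 columns ran from ICG-001 at 12 h as the lowest to C646 at 12 h as the highest, and the PANC1 columns from ICG-001 at 12 h to DMSO at 96 h. In PANC1 the order of the 6 columns was the same for HSPA1A and HSPA1B. The root mean square distance between their centred log2 signals there was 0.06. The transcripts of these genes are nearly identical, and how their probes divide RNA between them was not tested. In a count made after the values were seen, 1766 rows read at least 1500 in all PANC1 columns, and 9 of them (0.510%), HSPA1A included, were under the limit in all HCT116 columns. HSPA1L, the neighbouring HSP70 gene at chr6:31809619-31815283, was also picked after its values were seen. It was above the limit in 1 of 6 HCT116 columns (ICG-001 at 12 h, 147) and read 206 to 292 in PANC1.

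**Figure D1:**
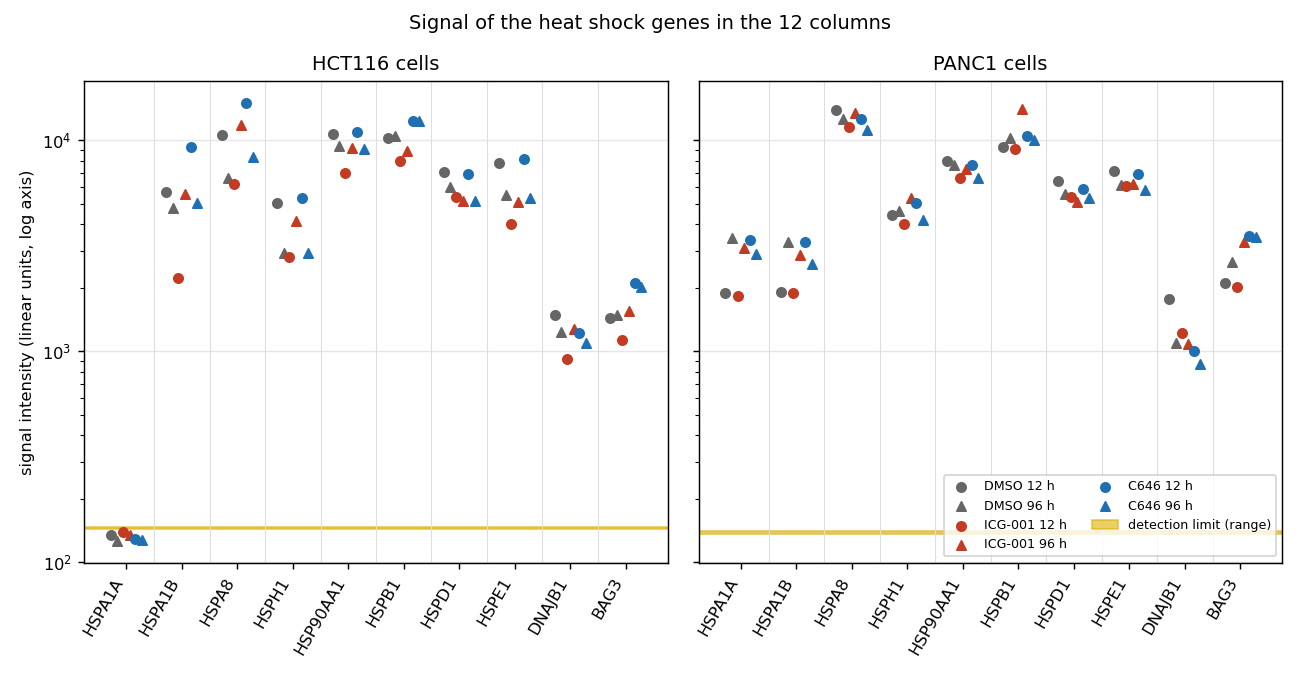
Signal intensity (log axis, linear units) of the 10 heat shock genes in the 6 HCT116 columns (left) and the 6 PANC1 columns (right). Each point is 1 column, coloured by treatment and shaped by time, and the yellow band is the range of the detection limits. HSPA1A sits under the band in HCT116, at 126 to 140, and between 1829 and 3433 in PANC1.

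To determine how ICG-001 affected the chaperone genes early, HCT116 cells at 12 h were compared with DMSO at 12 h. All 9 genes above the limit were lower with ICG-001, and 6 of them (HSPA1B, HSPA8, HSPH1, HSP90AA1, HSPE1 and DNAJB1) were lower by at least 1.5-fold, the size used here to count a gene as changed. Of all 16205 genes compared, 9.44% changed by that much in either direction. The median log2 ratio was -0.69 over the 9 genes and 0.00071 over all genes.

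The inducible HSP70 differed most. HSPA1B was at 2223 against 5665 in DMSO, 2.55-fold lower, with a log2 ratio of -1.35. That placed it 18 from the lowest among the 16205 genes. HSPA8 was at 6191 against 10606 in DMSO, with a log2 ratio of -0.78. HSPH1, the HSP110, was at 2802 against 5053, with a log2 ratio of -0.85. DNAJB1 was at 915 against 1477, a log2 ratio of -0.69. Within the set, the HSP70 genes and their partners were thus all below the solvent control. BAG3, the co-chaperone of the same cycle, differed least, at 1136 against 1437 and a log2 ratio of -0.34. HSP70 and HSP40 genes outside the set lay on either side of DMSO and are given further below. HSP90AA1 read 6960 against 10723, with a log2 ratio of -0.62, which was -0.57 and under 1.5-fold after quantile normalization over all 12 columns. HSPB1, the small heat shock protein, read 7934 against 10217, a log2 ratio of -0.36 that was under 1.5-fold.

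The mitochondrial chaperonin genes were both lower by unequal amounts. HSPE1 was at 3997 against 7775 in DMSO, with a log2 ratio of -0.96, second in size to that of HSPA1B. HSPD1 was at 5354 against 7104, with a log2 ratio of -0.41.

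The ICG-001 12 h column was also set against the other 4 HCT116 columns, a description added after the values were seen. It was the lowest of the 6 columns for 8 of the 9 genes, and it was the lowest for 18.8% of all genes above the limit in HCT116. The exception was HSPD1, which was lowest with C646 at 96 h. Against DMSO at 96 h all 9 genes were still lower, but only HSPA1B by at least 1.5-fold. With the mean of both DMSO columns as the control 2 were (HSPA1B at -1.23 and HSPE1 at -0.71). No share of all genes is set beside these counts, so they show only how the count of changed genes depended on the control. The DMSO columns themselves differed. Relative to DMSO at 12 h, the 96 h column was lower for 7 of the 9 genes, with a median log2 ratio of -0.25, and 2 genes changed, HSPH1 (5053 to 2914, log2 ratio -0.79) and HSPA8 (10606 to 6654, -0.67). Over all genes 3.31% changed between these columns.

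After 96 h of ICG-001 the pattern in HCT116 was not that of 12 h. Relative to DMSO at 96 h, 5 genes were higher and 4 lower, the median log2 ratio was 0.05, and 1 gene changed, against 10.8% of all genes. That gene was HSPA8, at 11770 against 6654, with a log2 ratio of 0.82. HSPH1 read 4161 against 2914, a log2 ratio of 0.51 that stayed under 1.5-fold. HSPA1B, at 5573 against 4767, had a log2 ratio of 0.23. HSPA8 was thus below its control at 12 h and above it at 96 h. The responses at 96 h were higher than those at 12 h for all 9 genes, by 0.12 to 1.60 on the log2 scale, and had the opposite sign for 5. Of these 5, DNAJB1 (0.05) and BAG3 (0.06) had 96 h ratios smaller than the SD of log2 ratios of genes under the limit (0.074). The same counts were not made over all genes. The 96 h control read lower than the 12 h control for 7 of the genes. Against the mean of both DMSO columns no gene of the set changed at 96 h, and the share of all genes under that control is not given.

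C646 gave other values in HCT116 at 12 h. Relative to DMSO, 7 of the 9 genes were higher and 2 lower, and 1 gene changed, against 4.28% of all genes. The median log2 ratio was 0.08, and -0.0030 over all genes. The ratios of HSP90AA1 (0.033), HSPE1 (0.065) and HSPD1 (-0.043) were smaller than the SD of log2 ratios of genes under the limit (0.073). HSPA1B, the changed gene, was at 9247 against 5665, with a log2 ratio of 0.71. HSPA8 (15016 against 10606, 0.50) and BAG3 (2097 against 1437, 0.55) were higher by less than 1.5-fold. DNAJB1 was lower, at 1220 against 1477 and a log2 ratio of -0.28. The C646 12 h column was the highest of the 6 columns for 6 of the 9 genes (HSPA1B, HSPA8, HSPH1, HSP90AA1, HSPE1 and BAG3), where 17.7% of all genes had their highest value. With the mean of both DMSO columns as the control, 2 genes changed, HSPA1B at 0.83 and HSPA8 at 0.84, and the share of all genes under that control is not given. At 96 h of C646 none of the 9 genes changed, against 3.35% of all genes, and the log2 ratios ran from -0.23 for HSPD1 to 0.43 for BAG3.

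**Figure D2:**
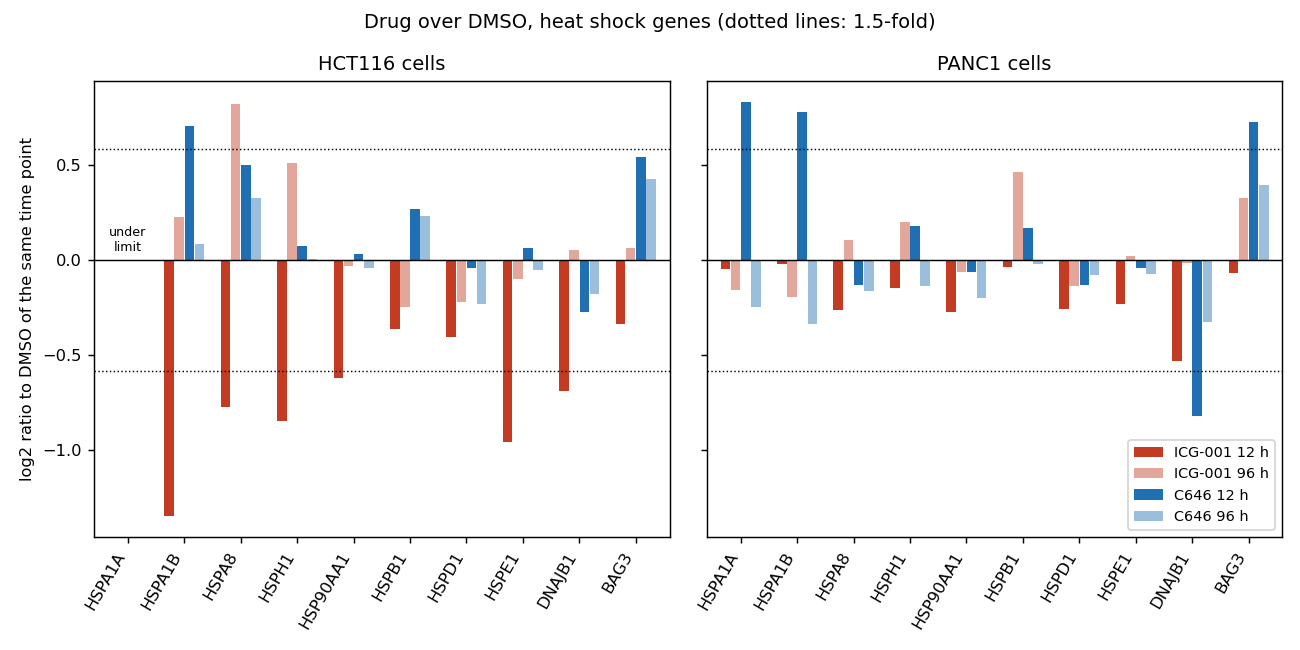
Log2 ratio of each drug to DMSO of the same time point for the 10 heat shock genes in HCT116 (left) and PANC1 (right), 1 bar per drug and time. Dotted lines mark 1.5-fold, and HSPA1A in HCT116 has no bars because it was under the detection limit. All 9 bars of ICG-001 at 12 h in HCT116 point down, from -0.34 to -1.35, and the C646 12 h bars of HSPA1A, HSPA1B and BAG3 in PANC1 reach 0.73 to 0.83.

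In PANC1 cells ICG-001 at 12 h changed none of the 10 genes by 1.5-fold, where 2.59% of all genes changed. All 10 were below DMSO, with a median log2 ratio of -0.19, where that over all genes was 0.00062. Values ran from -0.53 for DNAJB1 (1225 against 1771) to -0.02 for HSPA1B. The ratios of HSPA1B, HSPB1 (-0.04) and HSPA1A (-0.05) were smaller than the SD of log2 ratios of genes under the limit (0.067). The ICG-001 12 h column was the lowest of the 6 PANC1 columns for 6 of the 10 genes (HSPA1A, HSPA1B, HSPH1, HSP90AA1, HSPB1 and BAG3), compared with 9.05% of all genes. The DMSO 12 h column was the highest for 5 (HSPA8, HSP90AA1, HSPD1, HSPE1 and DNAJB1), compared with 22.5% of all genes. At 96 h of ICG-001 none changed, against 7.89% of all genes, with 5 genes higher and 5 lower. HSPB1 stood highest there, at 14093 against 10200 and a log2 ratio of 0.47.

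C646 at 12 h changed 4 of the 10 genes in PANC1, against 6.85% of all genes. The inducible HSP70 genes were higher, HSPA1A at 3374 against 1892 (log2 ratio 0.83) and HSPA1B at 3278 against 1906 (0.78). BAG3 was higher as well, at 3498 against 2110 (0.73). DNAJB1 was lower, at 1003 against 1771 (-0.82), so this HSP40 gene differed from its control in the other direction than HSPA1A and HSPA1B. The other 6 genes lay between -0.13 and 0.18.

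For 3 of these 4 genes the DMSO columns of PANC1 lay about as far apart as C646 and DMSO at 12 h. From 12 to 96 h in DMSO HSPA1A went from 1892 to 3433 (log2 ratio 0.86), HSPA1B from 1906 to 3285 (0.79) and DNAJB1 from 1771 to 1092 (-0.70). These 3 were the changed genes of the 10, and 1.34% of all genes changed between the DMSO columns. BAG3 read 2110 and 2634, a log2 ratio of 0.32. With the mean of both DMSO columns as the control, none of the 10 genes changed with C646 at 12 h. HSPA1A was then at 0.40, HSPA1B at 0.39, BAG3 at 0.57 and DNAJB1 at -0.47. The share of all genes under that control is not given. Cell density and handling went with time in these columns, and their part in the values was not tested.

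At 96 h of C646 none of the 10 genes changed in PANC1, against 4.13% of all genes. Of the 10, 9 were below DMSO, with a median log2 ratio of -0.15 (-0.018 over all genes), and BAG3 alone was above it, at 3462 against 2634 (0.39). The ratio of HSPB1, -0.02, was smaller than the SD of log2 ratios of genes under the limit (0.072). DNAJB1 was at 872 against 1092, a log2 ratio of -0.33, and at -0.67 against the mean of both DMSO columns.

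To determine if the CBP inhibitor and the inhibitor of CBP and p300 differed, the drugs were also compared with each other, which uses no DMSO column. In HCT116 at 12 h all 9 genes were lower with ICG-001 than with C646, with a median log2 ratio of -0.88, and 7 of them changed, against 6.49% of all genes. HSPA1B, at 2223 under ICG-001 and 9247 under C646, differed by 4.16-fold. Its log2 ratio of -2.06 was the lowest of all 16505 genes compared. HSPA8, at 6191 and 15016, had a log2 ratio of -1.28 and was at place 11 from the lowest. HSPE1 (3997 and 8135, -1.03), HSPH1 (2802 and 5326, -0.93), BAG3 (1136 and 2097, -0.88), HSP90AA1 (6960 and 10971, -0.66) and HSPB1 (7934 and 12307, -0.63) were the others. HSPD1 at -0.37 and DNAJB1 at -0.41 stayed under 1.5-fold. At 96 h none of the 9 genes changed between the drugs, against 6.83% of all genes, and values ran from -0.48 for HSPB1 to 0.51 for HSPH1.

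In PANC1 at 12 h 9 of the 10 genes were lower with ICG-001 than with C646, with a median log2 ratio of -0.21, and 3 changed, against 2.55% of all genes. These were HSPA1A (1829 and 3374, -0.88), HSPA1B (1881 and 3278, -0.80) and BAG3 (2012 and 3498, -0.80). DNAJB1 was the gene on the other side, at 1225 under ICG-001 and 1003 under C646 (0.29). At 96 h none changed, against 7.33% of all genes, and 8 of the 10 were higher with ICG-001, with a median of 0.14. The drugs thus differed by 1.5-fold at 7 genes in HCT116 and 3 in PANC1 at 12 h, and at 0 genes of either line at 96 h.

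**Figure D3:**
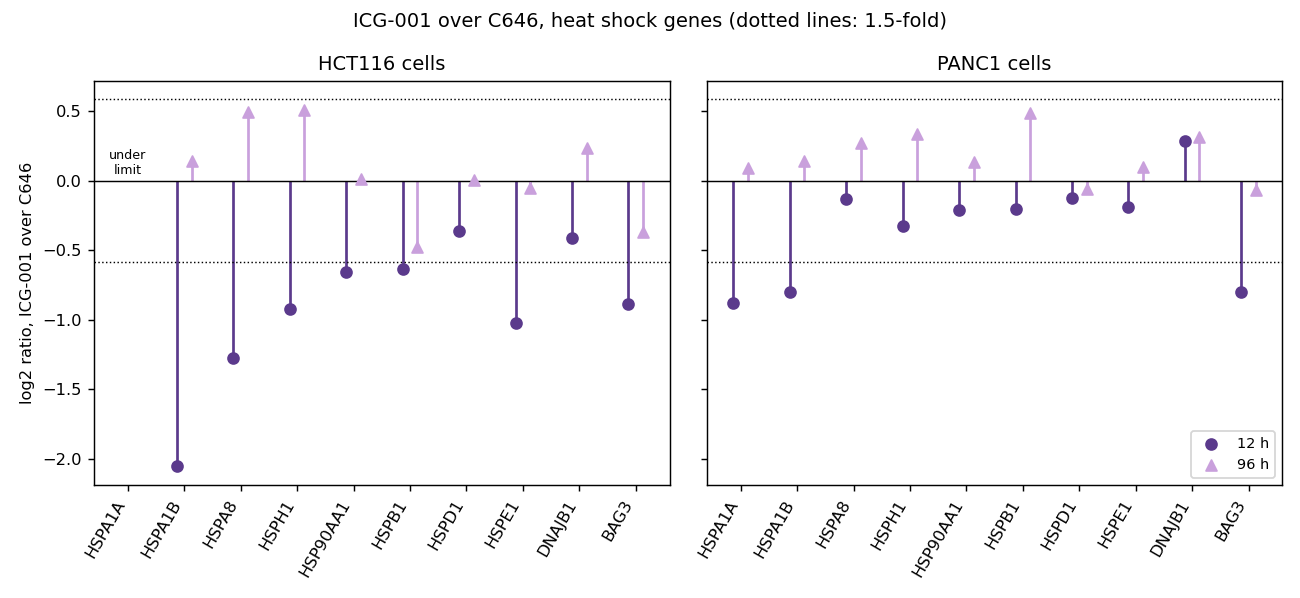
Log2 ratio of ICG-001 to C646 for the 10 heat shock genes in HCT116 (left) and PANC1 (right) at 12 h (circles) and 96 h (triangles), each point a ratio of 2 columns. Dotted lines mark 1.5-fold. The 12 h points lie below 0 for 9 of 9 genes in HCT116, with HSPA1B at -2.06, and for 9 of 10 in PANC1, and no 96 h point passes 1.5-fold.

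The constitutive HSP70 was far above the limit in every column. HSPA8 was at 10606 and 6654 in DMSO at 12 and 96 h in HCT116, at 6191 and 11770 in ICG-001 and at 15016 and 8337 in C646. In PANC1 it was at 13838 and 12545 in DMSO, 11550 and 13500 in ICG-001, and 12640 and 11210 in C646. The wide spacing of HSPA8 in HCT116 was thus not seen in PANC1. HSPH1 was at 5053 and 2914, 2802 and 4161, and 5326 and 2923 in the DMSO, ICG-001 and C646 columns of HCT116, and at 4444 and 4605, 4014 and 5295, and 5039 and 4189 in those of PANC1. ICG-001 at 12 h was its lowest column in each line.

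HSP90AA1 was at 10723 and 9355 in DMSO at 12 and 96 h in HCT116, at 6960 and 9170 in ICG-001 and at 10971 and 9071 in C646. In PANC1 it was at 8000 and 7600 in DMSO, 6621 and 7281 in ICG-001, and 7659 and 6622 in C646. The ICG-001 12 h column was its lowest in each line, in PANC1 level with C646 at 96 h. HSPB1 was at 10217 and 10515, 7934 and 8853, and 12307 and 12350 in the DMSO, ICG-001 and C646 columns of HCT116, and at 9315 and 10200, 9085 and 14093, and 10467 and 10069 in those of PANC1. Its ICG-001 columns were the lower ones in HCT116 at both times, while in PANC1 ICG-001 at 96 h was the highest. DNAJB1 was at 1477 and 1234, 915 and 1278, and 1220 and 1089 in the same columns of HCT116, and at 1771 and 1092, 1225 and 1082, and 1003 and 872 in those of PANC1. Its highest column was DMSO at 12 h in each line.

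The genes differed in how much they moved over the columns. The highest column over the lowest was 4.16-fold for HSPA1B in HCT116 and 1.75-fold in PANC1. HSPA8 spanned 2.43-fold in HCT116 and 1.23-fold in PANC1, and HSPE1 2.04-fold and 1.23-fold. For DNAJB1 the span was 1.61-fold in HCT116 and 2.03-fold in PANC1. The median span over all genes above the limit was 1.31-fold in HCT116 and 1.24-fold in PANC1, and 8.28% and 5.05% of genes spanned more than 2-fold.

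HSPD1 was the steadiest in HCT116 of the genes above the limit there, with a span of 1.38-fold. Its signals there were 7104 and 6028 with DMSO at 12 and 96 h, 5354 and 5167 under ICG-001, and 6896 and 5143 under C646. In PANC1 they were 6412 and 5585 with DMSO, 5363 and 5072 under ICG-001, and 5856 and 5296 under C646. HSPD1 was below DMSO in 8 of 8 drug comparisons, by log2 ratios of -0.41 to -0.04, and changed in none. The ratio of -0.04, from C646 at 12 h in HCT116, was smaller than the SD of dim genes there (0.073). With the mean of both DMSO columns as the control, HSPD1 was above it in that comparison, at 0.08. HSPE1 read 7775, 5493, 3997, 5119, 8135 and 5306 in the same 6 HCT116 columns, and 7134, 6121, 6078, 6219, 6940 and 5809 in those of PANC1. The distance between the chaperonin partners was 0.06 in PANC1 and 0.21 in HCT116.

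HSP90AA1 and DNAJB1 were each below DMSO in 7 of 8 drug comparisons, and HSPB1 passed 1.5-fold in 0 of 8. Some of the ratios below DMSO were smaller than the SD of log2 ratios of genes under the limit (0.072 to 0.074). For HSP90AA1 these were -0.029 (ICG-001) and -0.044 (C646) at 96 h in HCT116. In PANC1 they were -0.063 with 12 h of C646 and -0.062 with 96 h of ICG-001. For DNAJB1 only the -0.013 with 96 h of ICG-001 in PANC1 was as small. BAG3 was above DMSO in 6 of 8, at the least by 0.06 in HCT116. How many of all genes lay as often on the same side of DMSO was not counted. In HCT116 BAG3 read 1437 and 1491 with DMSO at 12 and 96 h, 1136 and 1556 under ICG-001, and 2097 and 2006 under C646. In PANC1 it read 2110 and 2634 with DMSO, 2012 and 3303 under ICG-001, and 3498 and 3462 under C646. The C646 columns were the highest for BAG3 in both lines and ICG-001 at 12 h the lowest. In all, 8 of 36 member values changed in the drug comparisons of HCT116 (2 higher and 6 lower) and 4 of 40 in those of PANC1 (3 higher and 1 lower). The share of all genes that changed in single comparisons was 3.35% to 10.8% in HCT116 and 2.59% to 7.89% in PANC1. Comparisons of the drugs with DMSO at the same time share a DMSO column.

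The factors that act on these genes were read on the same arrays. HSF1 was dim, at 155 to 206 in HCT116 and 131 to 188 in PANC1, and passed 1.5-fold in no drug comparison. Its lowest value, in PANC1 with C646 at 96 h, was under the limit. Because background was left in, ratios of so dim a gene understate differences. HSF2, a related factor that can form mixed trimers with HSF1, read 651 and 714 with DMSO at 12 and 96 h in HCT116. It read 387 and 402 under ICG-001 (log2 ratios -0.75 and -0.83) and 514 and 530 under C646 (-0.34 and -0.43). In PANC1 its log2 ratios lay between -0.35 and -0.04. HSF2 was thus lower by over 1.5-fold with ICG-001 at both times in HCT116 and by less in the other drug comparisons. RNA levels of these factors do not measure their activity.

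To place the set among other folding genes, a list of 63 genes outside it was used. Its members were other HSP70, HSP90, HSP40 and small heat shock proteins, co-chaperones, subunits of the cytosolic chaperonin and mitochondrial proteases. Factors and genes labelled as other targets of HSF1 were also in it. The table held 62 of the 63 genes, the missing one being HSPB11, and 59 were above the limit in at least 1 comparison. In HCT116 at 12 h of ICG-001, 8 of 55 were lower and 4 higher by at least 1.5-fold, against 9.44% of all genes in either direction, 41 were below DMSO, and the median log2 ratio was -0.18. The HSP40 gene DNAJA1 was the lowest, at 2462 against 6287 (-1.35). STIP1, which joins HSP70 to HSP90, was next, at 1493 against 3036 (-1.02). SQSTM1, an autophagy receptor (8233 against 4266, 0.95), and DNAJB9, an HSP40 of the endoplasmic reticulum (800 against 396, 1.02), were the highest. Of 9 co-chaperones of HSP90, 8 were below DMSO and 3 changed, all lower. Of 8 subunits of the cytosolic chaperonin, 7 were below DMSO and 0 changed. Among 6 other genes labelled as targets of HSF1, a label not tested here, 4 were below DMSO. Of them 2 changed, SQSTM1 and HMOX1 (0.69), which were higher. Among 7 other HSP70 genes, 5 were below DMSO and 1 changed, which was higher. The 9 other HSP40 genes were 5 below and 4 above, and 1 changed in each direction. For 3 mitochondrial proteases, 2 were above DMSO and 0 changed. HSPA9, the mitochondrial HSP70, was looked up after the values of HSPD1 and HSPE1 were seen and read 7652 against 5744 in DMSO (0.41), on the other side of its control from the mitochondrial chaperonin genes.

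At 96 h of ICG-001 in HCT116, 5 of 57 list genes were higher and 4 lower, against 10.8% of all genes, with a median of -0.05. SQSTM1 (10806 against 3972, 1.44) and SERPINH1, a collagen chaperone (1024 against 461, 1.15), were highest. HSP90AB1, the constitutive HSP90 (5321 against 9939, -0.90), and its co-chaperone PTGES3 (3304 against 5776, -0.81) were lowest. The constitutive HSP90 was thus below its control at 96 h, where the inducible HSP90AA1 read 9170 against 9355. With C646 at 12 h, 1 of 57 was higher and 0 lower (CDC37, which brings kinases to HSP90, 0.63), against 4.28% of all genes, with a median of 0.04. At 96 h of C646 2 were higher (DNAJB9 at 0.64 and SQSTM1 at 0.65) and 2 lower (HSP90AB1 at -0.60 and STIP1 at -0.59) of 56, against 3.35% of all genes, with a median of -0.03.

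In PANC1 at 12 h of ICG-001, 3 of 57 list genes were higher and 1 lower by at least 1.5-fold, against 2.59% of all genes, with a median of -0.12. The highest were HMOX1, the heme-degrading enzyme (970 against 477, 1.02), and LONP1, a mitochondrial protease (965 against 546, 0.82), and the lower was STIP1 (2915 against 4496, -0.63). At 96 h of ICG-001 2 were higher and 5 lower of 57, against 7.89% of all genes, with a median of -0.04. SERPINH1 (1703 against 699, 1.29) and SQSTM1 (15263 against 9282, 0.72) were the higher ones. HSBP1, which binds HSF1 (512 against 931, -0.86), and the ribosome-bound HSP40 DNAJC2 (192 against 339, -0.82) were lowest. With C646, 1 of 57 changed at 12 h (STIP1, 2981 against 4496, -0.59) and 0 of 57 at 96 h, against 6.85% and 4.13% of all genes, with a median of -0.05 at each time. STIP1 was thus lower by over 1.5-fold in 2 of the 4 PANC1 comparisons and 2 of the 4 in HCT116.

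**Figure D4:**
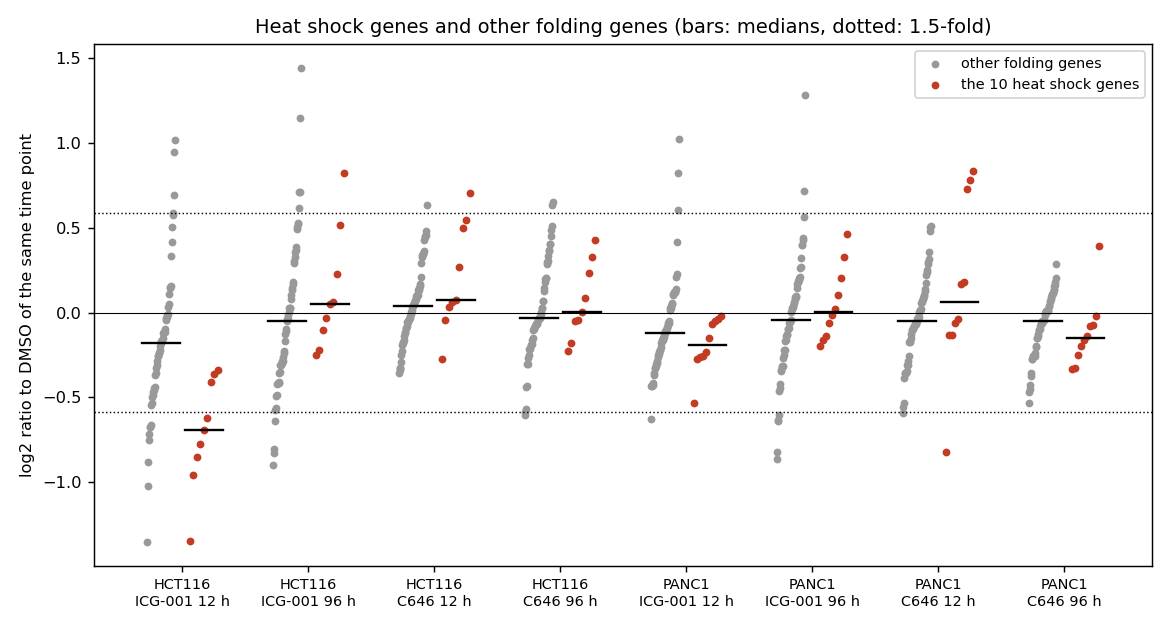
Log2 ratio to DMSO of the same time point for other folding genes (grey) and the 10 heat shock genes (red) in the 8 drug comparisons, 1 point per gene above the detection limit. Black bars are medians and dotted lines 1.5-fold. With ICG-001 at 12 h in HCT116 the median was -0.69 for the heat shock genes and -0.18 for the other folding genes.

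The rows of the table whose pattern came closest to that of 1 gene were found by root mean square distance between log2 signals centred within each line. Over 12 columns and 16317 rows, those nearest to HSPD1 were RNF8, C3orf38, LOC100129958, PSMA4 and PSMA3, at 0.048 to 0.058, where the median row was at 0.20. For HSPA1A they were KCNK3, GOLPH4, TMEM9, TRIM68 and GSTM1, at 0.15 to 0.18 with a median of 0.30, and its HCT116 values were background. A search over the 6 HCT116 columns and 18172 rows was chosen after the values were seen. There the rows nearest to HSPA1B were DNAJA1 (0.21), AXIN2 (0.21), LOC399988 (0.28), MSH6 (0.29) and SEPX1 (0.30), with a median of 0.62. Of the other heat shock genes, HSPA8 was at rank 8 for HSPA1B, HSPE1 at 12, BAG3 at 37, HSPH1 at 52, HSP90AA1 at 61, HSPB1 at 208, DNAJB1 at 358 and HSPD1 at 1058. AXIN2, a target of β-catenin picked out after the values were seen, read 766 and 643 with DMSO at 12 and 96 h. It read 249 and 617 under ICG-001, and 827 and 514 under C646. Whether AXIN2 and HSPA1B share a cause was not tested. The row nearest to HSPA8 was LOC399988 (0.05), which the RefSeq table names HSPA8P5, a pseudogene, and whether its probe reads HSPA8 RNA was not tested. For HSPA8, HSPH1 was at rank 6, HSPE1 at 78, and the others between 153 (HSPA1B) and 2160 (HSPB1).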

How the data were processed

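Per the labels and the study's methods, the authors hybridised RNA to HumanHT-12 v4 arrays, exported linear signal intensity from GenomeStudio (named in the submitters' processing notes) after quantile normalization, leaving background in, and averaged replicate arrays. The deposited intensity has 1 value per gene name and column. Neither single arrays nor detection p-values were used here, so the number of arrays limits the precision and no test was run. By the study's methods the replicates of a treatment were independent biological ones, averaged before deposit.

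Log2 ratios were taken between columns of a line. A gene entered a comparison when above the detection limit in at least 1 of the columns, and changed means a ratio of at least 1.5. Background left in the signal makes ratios of dim genes understate differences. Groups came from the labels, and 14 comparisons were made: 8 of a drug with DMSO, 4 between drugs and 2 between DMSO columns. Genes, lists and alternatives were chosen with earlier results of these data known. All 10 genes, HSF1 and HSF2 were named, with the 2 largest rises and falls past 1.5-fold of the wider folding list in each drug comparison, and the 5 nearest rows to HSPA1A and HSPD1. Coordinates and promoters are from RefSeq GRCh38.p14, matched by symbol. The genome build behind the array annotation is not given in the sources used here.

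Alternatives were thresholds of 1.2 and 2, no filter, a limit at 5 SD, centring, normexp correction (offset 16) with quantile normalization within a line (which kept the filter from the deposited signals), quantile normalization over 12 columns, and the mean of both DMSO columns as control. A median that moved by less than the SD of log2 ratios of genes under the limit was counted as unmoved, as was a count of changed genes within 1.5 times the main one. The procedure was tested on simulated data with 2-fold shifts placed in bright genes. That test does not cover dim genes, changes near 1.5-fold or the spread of replicate arrays. Normexp was run with limma 3.58.1 (R 4.3.3), and all else with Python 3.11.15, numpy 2.4.6, pandas 2.3.3 and matplotlib 3.10.9.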

Additional observations from a re-analysis of the deposited data

How the results depend on the processing

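No paired analysis was possible because each group had 1 column of averaged arrays, and for the same reason no array could be left out. Over 14 comparisons, the counts of changed heat shock genes were the same under centring, a limit at 5 SD, normexp and no filter. Quantile normalization over all columns took the count for ICG-001 at 12 h in HCT116 from 6 to 5, with HSP90AA1 at -0.57, and left the other counts as they were. Under these settings medians moved by less than the spread of dim genes, except that without the filter 1 median moved, that of ICG-001 over C646 in HCT116 at 12 h, to -0.77 with HSPA1A included. The control was varied in the 8 comparisons with DMSO, where it moved 5 medians and 5 counts, while thresholds of 1.2 and 2 moved 9 and 8 of 14 counts. With the mean of both DMSO columns, the HCT116 medians were -0.45 and -0.079 for ICG-001 at 12 and 96 h and 0.32 and -0.14 for C646, and the PANC1 median for ICG-001 at 96 h was 0.12. The changed genes then numbered 2 and 0 in HCT116 for ICG-001 at 12 and 96 h, 2 for C646 at 12 h, and in PANC1 0 and 1 for C646 at 12 and 96 h. No share of all genes under the mean control is set beside these counts, so they are not read against a background. At a threshold of 1.2, which 15.7% to 35.8% of all genes passed, all 9 genes changed in HCT116 with 12 h of ICG-001 and between the drugs at 12 h. There 2 genes changed under ICG-001 at 96 h, 5 and 2 under C646 at 12 and 96 h and 4 between the drugs at 96 h. In PANC1 2 changed at each time with ICG-001, 3 with C646 at 96 h, and 5 and 4 between the drugs at 12 and 96 h. At a threshold of 2, which 0.179% to 2.27% of all genes passed, 1 gene (HSPA1B) changed in HCT116 with ICG-001 at 12 h and 3 between the drugs at 12 h. None then changed in HCT116 for 96 h of ICG-001, for 12 h of C646 or between the DMSO columns, and none in PANC1 with C646 at 12 h, between the drugs at 12 h or between the DMSO columns, so these counts were 0. Among single genes, 53 of 76 log2 ratios moved by more than the spread of dim genes under the mean control, and 7 of 133 under quantile normalization over all columns. The spread of replicate arrays, which was not used here, limits how far differences near 1.5-fold can be read.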
